A study of Mus musculus with 6 samples.

Results

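The genes described here handle zinc: the metallothionein genes Mt1 and Mt2, the metal-sensing transcription factor gene Mtf1, the zinc exporter gene Slc30a1 and the zinc importer genes Slc39a8, Slc39a10 and Slc39a14. They are 7 of the 49592 genes of the deposited table, found by symbol, and all 7 reached the expression minimum (a mean of at least 0.5 FPKM, fragments scaled to transcript length and library size). The set was chosen by the FPKM values of Mt1 and Mt2, which were higher with TWEAK, so the difference of this pair is given as a description and without a test. The other members were listed with that contrast in view, so their tests support nothing beyond their own values. RNA was measured by poly(A) RNA-seq in C2C12, a mouse myoblast line that forms myotubes in low serum, so these cells are a model of a single line in culture. Cells were differentiated for 3 days, then left untreated (3 libraries) or given the TNF-family cytokine TWEAK at 10 ng/ml for 12 h (3 libraries), and the labels number the libraries of each group as trials 1 to 3. The comparison addresses how TWEAK alters gene expression while myotubes fuse. Whether a trial was a culture of its own is not stated in the labels. A p-value here therefore reflects only how far these 6 libraries scatter, which may be technical.

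Metallothioneins are small, cysteine-rich proteins that bind zinc and copper and buffer their free levels. MTF-1 senses a rise in free zinc and binds metal response elements in the promoters of Mt1, Mt2 and Slc30a1, and it is known to repress Slc39a10. Transporters of the SLC39 (ZIP) family carry zinc into the cytosol and those of the SLC30 (ZnT) family carry it out of the cytosol or into vesicles. Metallothionein genes also respond to glucocorticoids and to cytokines, and their transcripts are known to rise in wasting muscle.

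The promoters of Mt1, Mt2 and Slc30a1 are shown because they are the textbook binding places of MTF-1, and because Mt1 and Mt2 were higher with TWEAK while Slc30a1 did not pass the test. Each line gives the 250 bases before the RefSeq start, 5′ to 3′ on the plus strand of GRCm38.p6 (the table's positions are on GRCm39), with matches to the metal response element core in capitals. The core was searched as TGCACNC and TGCGCNC on both strands; the pair of patterns cannot match the same bases on the same strand.
Mt1 (chr8:94178839-94179088): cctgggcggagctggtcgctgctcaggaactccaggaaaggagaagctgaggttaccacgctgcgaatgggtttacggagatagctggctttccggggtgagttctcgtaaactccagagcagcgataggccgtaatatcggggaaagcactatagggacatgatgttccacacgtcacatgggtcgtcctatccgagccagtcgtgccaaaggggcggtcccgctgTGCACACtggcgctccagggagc
Mt2 (chr8:94172368-94172617): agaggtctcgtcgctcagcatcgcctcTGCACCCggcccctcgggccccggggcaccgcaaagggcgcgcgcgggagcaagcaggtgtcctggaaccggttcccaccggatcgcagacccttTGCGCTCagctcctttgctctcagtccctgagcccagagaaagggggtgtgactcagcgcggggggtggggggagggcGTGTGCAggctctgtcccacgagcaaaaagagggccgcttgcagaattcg
Slc30a1 (chr1:191906531-191906780): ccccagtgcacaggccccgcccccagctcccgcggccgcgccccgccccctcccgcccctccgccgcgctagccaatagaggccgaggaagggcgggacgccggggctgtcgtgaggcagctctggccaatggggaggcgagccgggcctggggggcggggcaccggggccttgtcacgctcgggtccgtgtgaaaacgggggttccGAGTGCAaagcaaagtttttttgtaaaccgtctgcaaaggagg
Over 300 bases, which add the 50 bases after the start, Mt2 held 4 core matches, Mt1 held 3 and Slc30a1 held 2. Of 32851 RefSeq promoter windows of that length, 25.7% held at least 1 match, 7.11% at least 2, 1.97% at least 3 and 0.517% at least 4. The window of Mtf1 held 0 matches, as did both windows of Slc39a10, while 1 of the 2 windows of Slc39a8 held 1. Of the further importer genes searched, Slc39a1 held 0 and both windows of Slc39a11 held 1 each. A match is a string of letters and shows no binding. GENCODE M21 also has starts 122 and 152 bases downstream of this RefSeq start for Mt1, and 46 and 242 bases downstream for Mt2. The 1085-base transcript of Mt1 has the start at 152. Promoter sequence of those starts beyond the 300 bases was not searched, so the numbers of matches hold for these windows only. The Mt2 window also held 1 match to the AP-1 core TGANTCA (7.81% of all windows) and 1 to the antioxidant element core TGACNNNGC (12.4%), which begin at the same base, 79 before the start. Neither the Mt1 nor the Mt2 window held a match to the kappaB element, to the STAT element TTCNNNGAA or to the full palindromic glucocorticoid response element. Those were found in 4.51%, 8.30% and 0.00913% of windows. Each is absent from most windows, and sequence outside the 300 bases was not searched, so nothing is read from its absence. The palindromic pattern matched only 3 windows in all. Elsewhere among the zinc genes searched, the importer gene Slc39a1 held a kappaB match, and 1 window of Slc39a10 held a STAT match. The antioxidant core was also found in Slc30a1, Slc39a1 and 1 window of Slc39a8.

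Mt2 and Mt1 were both higher in every TWEAK library than in any untreated library, and Mt2 differed more. Mt2 (ENSMUSG00000031762.8, GRCm39 chromosome 8, 94899292 to 94900196) was at 358, 478 and 510 FPKM in TWEAK trials 1, 2 and 3, and at 143, 154 and 153 FPKM in the untreated ones. The lowest treated library thus lay far above the highest untreated one. The means were 449 ± 80.1 and 150 ± 6.08 FPKM (SD, n = 3 per group), a 3.00-fold difference. Within trials 1, 2 and 3 the ratio of treated to untreated Mt2 was 2.51, 3.11 and 3.34. Mt1 (ENSMUSG00000031765.9, chromosome 8, 94905710 to 94906955) was at 141, 171 and 199 FPKM with TWEAK and at 104, 109 and 116 FPKM without. Its groups did not overlap either, and trial 1 was the lowest of both groups, as it was for Mt2. The means were 170 ± 28.7 and 110 ± 6.33 FPKM (n = 3 per group), a 1.55-fold difference, with within-trial ratios of 1.37, 1.56 and 1.71. In both genes the SD was larger among the treated libraries than among the untreated ones. Over all 12770 tested genes, 20.0% were higher in every TWEAK library than in any untreated one. That share is the background of this pattern, and nothing is read from it here because the pattern chose these genes. Myotubes and unfused cells were sequenced together, so a change in RNA per cell and a change in the share of cells that hold it cannot be told apart.

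**Figure D1:**
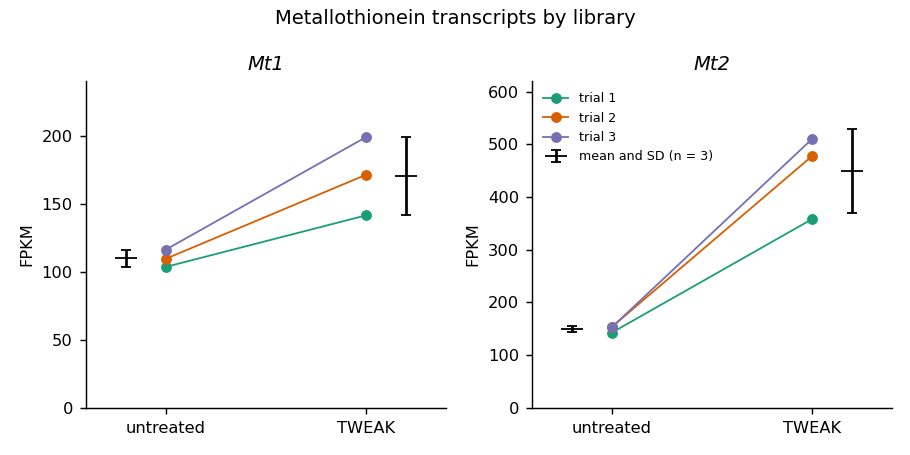
Expression (FPKM, linear axis from 0) of Mt1 and Mt2 in each library; lines join the untreated and TWEAK library of the same trial, and bars give the mean and SD of 3 libraries. Mt2 goes from 143 to 154 FPKM without TWEAK to 358 to 510 FPKM with it, and Mt1 from 104 to 116 to 141 to 199.

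On the log2(FPKM + 1) scale the difference was 1.56 for Mt2 and 0.62 for Mt1. The authors' deposited table gives log2 fold changes of 1.58 for Mt2 and 0.64 for Mt1. Leaving out each library in turn gave differences between 1.46 and 1.72 for Mt2 and between 0.50 and 0.75 for Mt1. By FPKM, Mt2 ranked 373 of the 12770 tested genes in untreated cells and 91 with TWEAK, and Mt1 ranked 558 and 329. Across the 6 libraries the log2 values of Mt1 and Mt2 correlated at Pearson's r = 0.965, a description over libraries that share the group difference.

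The balance between the genes also differed between groups. The reads behind the FPKM values could be recovered as whole numbers. Untreated libraries held 3716, 3903 and 5110 Mt1 reads and 2415, 2581 and 3170 Mt2 reads in trials 1, 2 and 3. TWEAK libraries held 4666, 6458 and 6428 Mt1 reads and 5569, 8493 and 7772 Mt2 reads. There were thus 0.620 to 0.661 Mt2 reads per Mt1 read in untreated cells (mean 0.644 ± 0.0211, n = 3) and 1.19 to 1.32 with TWEAK (mean 1.24 ± 0.0662, n = 3). Mt1 gave the more reads in all 3 untreated libraries and Mt2 in all 3 treated ones. This ratio needs no library scaling, but it comes from the same contrast that chose the genes and is therefore not tested. Together, both genes took 183 to 203 RPM (recovered reads scaled to library size) in control and 342 to 472 RPM in treated libraries. The genes are close paralogs, and reads that match both could be lost or split. How such reads were counted is not given in the sources used here.

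Which gene stood higher in untreated cells depended on the transcript length used. In the deposited values the length of Mt1 is 1085 bases and that of Mt2 is 511 bases, each equal to the longest transcript of the gene in GENCODE M21. Mt1 has a shorter transcript there, of 549 bases. With that length, untreated Mt1 would be at 217 ± 12.5 FPKM, above Mt2 at 150 ± 6.08 FPKM (n = 3), whereas the deposited 110 ± 6.33 lies below it. With TWEAK, Mt1 would be at 337 ± 56.8 FPKM with the shorter length, below Mt2 at 449 ± 80.1, and the SD ranges meet. Mt2 also has a shorter transcript, of 388 bases, with which it would be at 197 ± 8.01 FPKM in control and 591 ± 106 FPKM in treated cells (n = 3 each). With the shorter length for both genes, Mt1 is above Mt2 in control cells by 217 to 197 FPKM, where the SD ranges just meet, and below it in treated cells by 337 to 591 FPKM, where they do not. Ratios between groups do not change with the length.

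**Figure D2:**
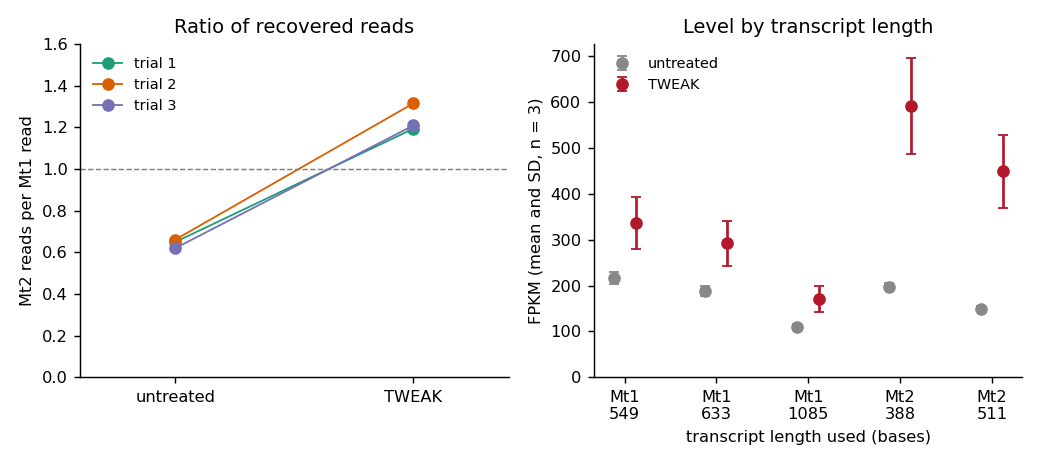
Left, Mt2 reads per Mt1 read in each library, with lines joining trials and a dashed line at equal reads; right, mean FPKM and SD (n = 3) of Mt1 and Mt2 when reads are divided by the length of each GENCODE M21 transcript in bases. The ratio is at 0.620 to 0.661 in untreated and 1.19 to 1.32 in TWEAK libraries, and Mt1 in untreated cells ranges from 110 to 217 FPKM with the length used.

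The other metallothionein genes were nearly silent. Mt3, which is known from brain, had 3 reads in all TWEAK libraries and 0 in the untreated ones, and Mt4, known from squamous epithelium, had 1 and 0. A count of 0 allows up to 3 reads, so no fold is given. On GRCm39, Mt2 and Mt1 lie 5513 bases apart. Within 250 kb of the pair, 20 other genes are listed, and 7 of them were tested. Of these, 1 passed (limma, adjusted p under 0.05), against 15.1% of all tested genes, with a median log2 fold change of 0.03. That gene was Nup93, which encodes a nuclear pore protein. Its mean was 45.0 FPKM in treated and 35.4 in control cells (limma adjusted p = 0.0136). With the trial as a block, 3 of the 7 passed, against 27.9% of all tested genes: Nup93, Nudt21 (higher) and Gnao1 (lower). The noncoding gene Gm45774 overlaps Mt2 and held 43 reads over the treated libraries and 12 over the controls, beside 21834 and 8166 for Mt2.

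Mtf1 (chromosome 4, 124695897 to 124743593), the gene of the zinc sensor itself, was at 5.36, 5.14 and 4.49 FPKM with TWEAK and at 6.02, 5.40 and 5.56 FPKM without. All 3 treated libraries lay below the untreated ones, by a narrow margin, and trial 3 with TWEAK was the lowest. Over all tested genes, 15.9% were lower in every TWEAK library and 35.9% did not overlap in either direction. The means were 5.00 ± 0.456 and 5.66 ± 0.319 FPKM (n = 3 per group). The difference did not pass (log2 fold change -0.15, 95% interval -0.34 to 0.03, limma adjusted p = 0.253). Part of its length is shared with the gene 1110065P20Rik, which had a mean of 15.0 FPKM in treated and 15.4 in control cells and did not pass.

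Slc30a1 (chromosome 1, 191638879 to 191645359) encodes ZnT1, the zinc exporter of the plasma membrane. It was at 2.42, 2.33 and 2.61 FPKM with TWEAK and at 2.28, 2.83 and 2.77 FPKM without, and the groups overlapped. The log2 fold change was -0.07 (95% interval -0.27 to 0.13, limma adjusted p = 0.658). Pooled over libraries, 1219 reads stood against 1472, a ratio per library size of 0.929 (95% exact binomial interval 0.860 to 1.00, for counting error only). The upper bound of 0.13 stands beside log2 differences of 0.62 for Mt1 and 1.56 for Mt2. All are differences of log2(FPKM + 1), where the added 1 shrinks the low Slc30a1 values more than those of Mt1 and Mt2. The Mt1 and Mt2 differences chose the set, so nothing is read from this comparison. With limma-voom on recovered reads the log2 fold change of Slc30a1 was -0.099. A noncoding gene that overlaps Slc30a1, 1700034H15Rik, held 15 and 29 reads.

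Among the importers, Slc39a10 rose and the other importers of the set did not pass. Slc39a10 (ENSMUSG00000025986.7, chromosome 1, 46846704 to 46932012) encodes ZIP10. It was at 5.99, 6.28 and 5.13 FPKM with TWEAK and at 3.99, 3.80 and 4.35 FPKM without. The groups did not overlap, though trial 3 gave the lowest treated and the highest untreated value. The means were 5.80 ± 0.597 and 4.04 ± 0.280 FPKM (n = 3 per group), a 1.44-fold difference. The log2 fold change, taken on FPKM + 1, was 0.43 (SE 0.09, limma adjusted p = 0.0127, higher in 3 of 3 trials). It was 0.52 with limma-voom on recovered reads. The call was lost without TWEAK replicate 2 (limma adjusted p = 0.0612), without untreated replicate 2 (0.0565) and with no expression minimum (0.0615), and over all 15 alternatives the adjusted p ran from 3.36e-05 to 0.0615. Gm28151, a noncoding gene that overlaps it, was at 0.939 and 0.905 FPKM and did not pass.

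Slc39a14 encodes ZIP14, an importer of zinc and of iron not bound to transferrin, which is known to be induced by inflammatory cytokines in liver. It was at 13.1, 14.4 and 13.1 FPKM with TWEAK and at 12.2, 13.9 and 14.5 FPKM without. The group means were 13.5 ± 0.747 and 13.6 ± 1.23 FPKM (n = 3 per group), and the 95% interval of the log2 fold change ran from -0.18 to 0.18 (limma adjusted p = 0.998). Slc39a8 encodes ZIP8, an importer known as an NF-kB target in other cells. It was at 0.624, 0.608 and 0.566 FPKM with TWEAK and at 0.617, 0.629 and 0.621 FPKM without, near the expression minimum. It had 240 reads against 279 in all, a ratio of 0.965 (95% exact binomial interval 0.808 to 1.15), and a log2 fold change of -0.02 (limma adjusted p = 0.891). Of the 5 members other than Mt1 and Mt2, 1 rose and 0 fell, beside 8.98% and 6.10% of all tested genes. Their median log2 fold change was -0.02, beside 0.01 for all tested genes.

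**Figure D3:**
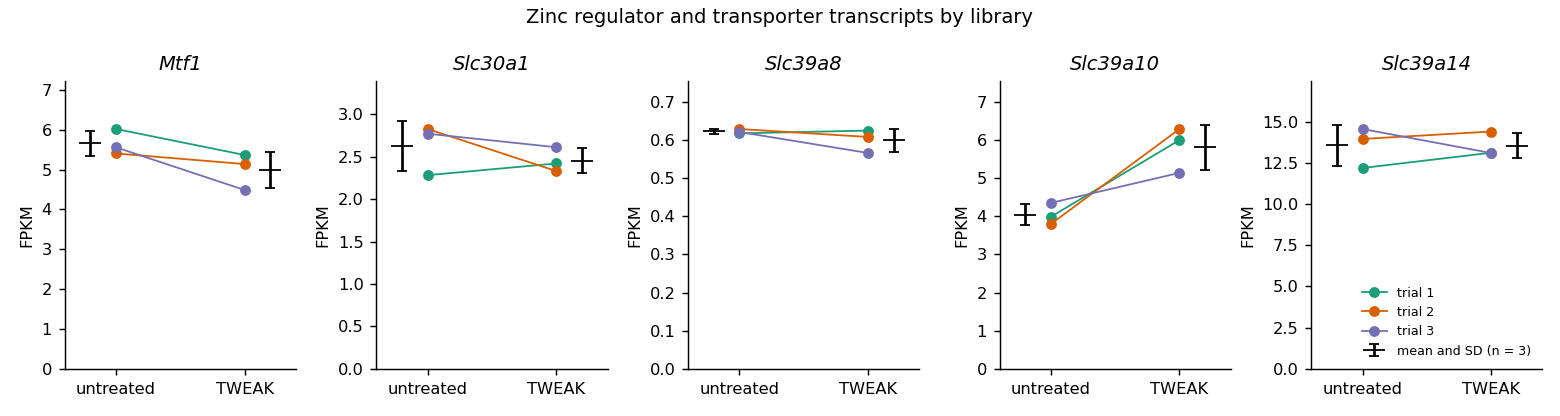
Expression (FPKM, linear axes from 0, each gene with its own scale) of Mtf1, Slc30a1, Slc39a8, Slc39a10 and Slc39a14 in each library; lines join libraries of the same trial, and bars give the mean and SD of 3 libraries. Slc39a10 is the gene of the 5 that passed the test, with every TWEAK value (5.13 to 6.28) above every untreated value (3.80 to 4.35).

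The wider families were read in the same way. Of 14 ZIP genes, 10 were tested, 3 rose, 0 fell and 7 did not pass, where 8.98% of all tested genes rose and 6.10% fell. Of 10 ZnT genes, 6 were tested and 0 passed (limma; 0 also at an unadjusted p under 0.05 and 0 with limma-voom on recovered reads). The median log2 fold change was 0.10 for the tested ZIP genes and -0.05 for the tested ZnT genes. Beside Slc39a10, the genes that rose were Slc39a11 and Slc39a1. Slc39a11, which encodes ZIP11, was at 9.66, 10.5 and 11.2 FPKM with TWEAK and at 6.08, 7.31 and 7.51 FPKM without. The treated and control ranges were apart, and the difference was 1.50-fold (log2 fold change 0.52, SE 0.09, limma adjusted p = 0.00633). It passed under all 15 alternatives. Slc39a1, the gene of the plasma membrane importer ZIP1, was at 58.3, 66.1 and 74.4 FPKM with TWEAK and at 46.3, 52.7 and 53.8 FPKM without, again with no overlap. That is 1.30-fold (log2 fold change 0.37, SE 0.10, limma adjusted p = 0.0342; 0.000782 with the replicate block). Slc39a1 missed the threshold when TWEAK replicate 2 (limma adjusted p = 0.105) or 3 (0.0718) or untreated replicate 1 (0.125), 2 (0.0798) or 3 (0.0554) was left out, and with no expression minimum (0.121). Part of Slc39a11 is shared with Cog1, which was at 10.7 and 10.1 FPKM and did not pass. The pseudogene Gm16487 also overlaps Slc39a11 and held 27 reads over the treated libraries and 0 over the controls, beside 2753 and 2074 for Slc39a11. The part of these reads in the Slc39a11 result was not tested.

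In untreated cells the tested zinc genes spanned 0.622 to 150 FPKM, a scale per longest transcript. Mt2 stood first, then Slc39a7, the gene of the ZIP7 importer of the endoplasmic reticulum, at 123 ± 6.25 FPKM (n = 3), then Mt1, Slc39a1 and Slc39a13. Among the members the order was Mt2, Mt1, Slc39a14, Mtf1, Slc39a10, Slc30a1 and Slc39a8, and the ranges over 3 libraries of neighbours in this order did not overlap. Over all 19 tested zinc genes, ranges of neighbours overlapped for Slc30a9 and Slc39a6, for Slc30a5 and Slc39a14, and for Slc39a3 and Slc39a9. Slc30a4 was the most abundant ZnT gene, at 20.6 ± 0.483 FPKM in treated and 23.4 ± 2.36 in control cells (n = 3 each; log2 fold change -0.17, limma adjusted p = 0.194). The remaining genes of the families, 8 transporters besides Mt3 and Mt4, lay below the expression minimum.

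**Figure D4:**
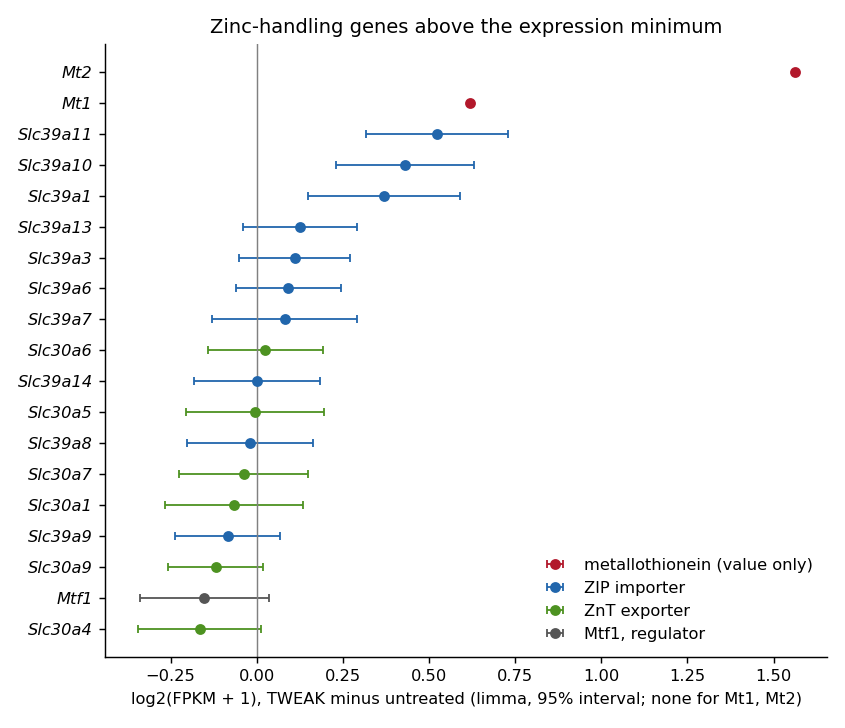
Difference in log2(FPKM + 1), TWEAK minus untreated, for the 19 zinc-handling genes above the expression minimum; colours mark the family, and bars are 95% intervals from limma over 3 libraries per group, with none drawn for Mt1 and Mt2, whose values chose the set. Of the other 17 genes, the intervals of Slc39a11, Slc39a10 and Slc39a1 lie above 0, and the rest include 0.

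Other genes of metal handling and of pathways that can act on metallothionein genes were read from lists. The background for every count is that of all 12770 tested genes, of which 8.98% rose, 6.10% fell and 15.1% passed in either direction, and 27.9% passed with the replicate block. Of 5 tested further targets of MTF-1, 0 passed with limma (2 at an unadjusted p under 0.05, and 2 lower with the replicate block). These 2 were Slc40a1, the gene of the iron exporter ferroportin (2.69 ± 0.381 FPKM in treated and 3.90 ± 0.717 in control cells, n = 3 each; limma adjusted p = 0.0589, and 0.0016 with the block), and Csrp1, of a cytoskeletal LIM protein (0.0852 and 0.049). Of 12 stress genes of metal and misfolded-protein responses, 0 passed with limma, and 4 had an unadjusted p under 0.05: Bag3, Cryab and Hspb1, with lower means in treated cells, and Dnajb1, with a higher one (3 of the 12 passed with the replicate block, near the background of 27.9%). Hmox1, the heme oxygenase gene that metals such as cadmium induce, was at 25.7 ± 0.429 FPKM against 23.9 ± 1.73 (n = 3; limma adjusted p = 0.364).

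Of 11 tested copper genes, 2 rose and 0 fell, beside 8.98% and 6.10% of all tested genes. With the replicate block 3 rose, the further gene being Sod1, of a superoxide dismutase that holds copper and zinc (limma adjusted p = 0.0608, and 0.0166 with the block). Atox1, of a copper chaperone, rose 1.30-fold (limma adjusted p = 0.0329), and Sco2, of a factor that supplies copper to cytochrome oxidase, rose 1.46-fold (0.011). Atox1 missed the threshold when TWEAK replicate 2 or 3 or any single untreated library was left out (limma adjusted p up to 0.112) and with no expression minimum (0.117), the setting that also took the call from Sco2 (0.0573). Of 12 tested iron genes, 1 rose and 0 fell, a share near the background of 8.98%, and with the replicate block Slc40a1, which is also on this list, fell. The gene that rose was Slc11a2, the gene of the iron importer DMT1, at 34.7 ± 2.11 FPKM in treated and 24.4 ± 0.760 in control cells (n = 3 each; 1.42-fold, limma adjusted p = 0.00238), and it passed under all 15 alternatives.

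Of 9 tested glucocorticoid-responsive genes, 2 rose and 2 fell, beside 8.98% and 6.10% of all tested genes. With the replicate block 2 rose and 4 fell, 6 of 9 beside 27.9%. The further genes that fell were Pdk4 (limma adjusted p = 0.0504, and 0.00334 with the block) and Klf9 (0.199 and 0.0323). Fkbp5, a co-chaperone gene of the glucocorticoid receptor, rose 1.61-fold (limma adjusted p = 0.00414), and the kinase gene Sgk1 rose 1.42-fold (0.0205). The phosphatase gene Dusp1 fell 1.67-fold (0.00141), and the clock gene Per1 fell 1.28-fold (0.0405). Tsc22d3, which encodes GILZ, did not pass (adjusted p = 0.164), and Nr3c1, the receptor gene, was at 12.6 FPKM against 12.7. Without some single libraries the calls of Sgk1 (limma adjusted p up to 0.0688, TWEAK replicates 2 and 3 and untreated replicate 2) and Per1 (up to 0.135, TWEAK replicates 2 and 3 and untreated replicates 1 and 2) were lost, as they were with no expression minimum (0.094 and 0.108). Of 13 genes of the acute phase and of STAT3 signalling, 8 were tested. The other 5 (Fgl2, Hp, Il6, Lcn2 and Saa3) lay below the expression minimum, with Lcn2 at 0 in all libraries. Of the 8, 3 rose and 0 fell, beside the same 8.98% and 6.10%. With the replicate block 4 rose, the further gene being the transcription factor gene Cebpb (limma adjusted p = 0.0978, and 0.00602 with the block). The 3 that rose without the block were the transcription factor gene Cebpd (2.14-fold, limma adjusted p = 0.000461) and the cytokine receptor genes Il6st (1.34-fold, 0.00499) and Osmr (1.37-fold, 0.0173). Osmr missed the threshold without TWEAK replicate 2, untreated replicate 1 or 2 (limma adjusted p up to 0.0798), or an expression minimum (0.0732). Socs3, a feedback gene of that pathway, was at 10.1 FPKM against 8.66 (adjusted p = 0.203).

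**Figure D5:**
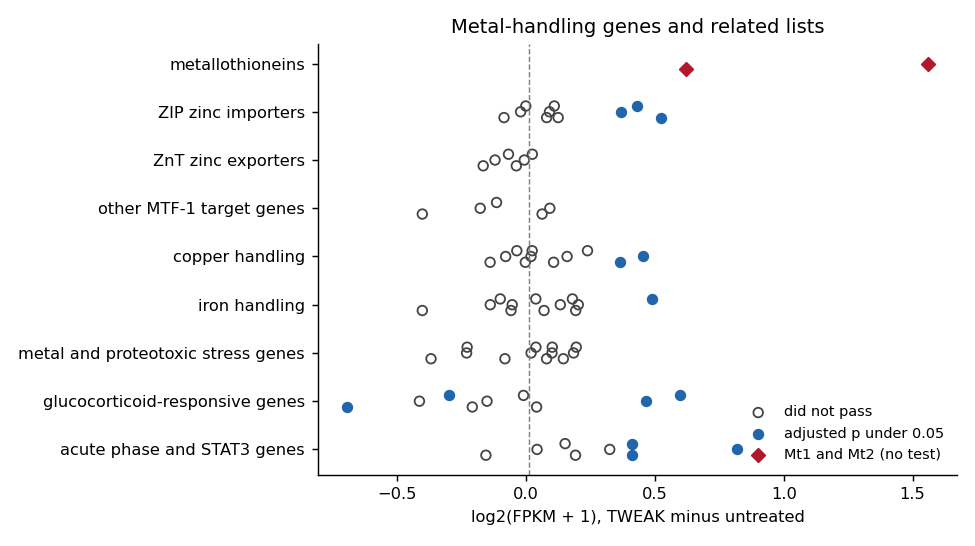
Difference in log2(FPKM + 1), TWEAK minus untreated, for every tested gene of 9 lists (1 point per gene; filled blue, limma adjusted p under 0.05; open, did not pass; diamonds, Mt1 and Mt2, given with no test); the dashed line is the median of all tested genes, 0.01. No listed gene other than Mt2 goes beyond 0.82, the value of Cebpd.

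The genes whose log2 values over the 6 libraries were most like the mean of Mt1 and Mt2, of 10798 genes compared, were Lsm2, Prmt3, Hnrnpd, Hspa9 and Npm3, at Pearson's r of 0.999, 0.998, 0.997, 0.997 and 0.997. These values describe the order and spacing of 6 libraries and share the group difference. They do not mean an equal size of change. Lsm2, Hnrnpd and Npm3 passed (limma adjusted p = 0.00578, 0.0244 and 0.00754), while Prmt3 (0.0527) and Hspa9 (0.267) did not. The call of Hnrnpd was lost in 6 of the 15 alternatives. Lsm2, of an RNA-binding complex of splicing and decay, was at 12.4 ± 1.49 FPKM in treated and 8.27 ± 0.283 in control cells (n = 3 each; 1.50-fold), and the mitochondrial chaperone gene Hspa9 was at 277 ± 6.39 and 255 ± 1.07 (1.09-fold).

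The libraries held 29952086 to 40887705 recovered reads each. All 8 differentiated muscle markers were tested, at mean levels of 81.8 to 3669 FPKM. Of these, 2 fell (Myh3 and Myod1) and 0 rose, beside 6.10% and 8.98% of all tested genes. Of 6 markers of undifferentiated myoblasts, 1 rose (Mki67) and 3 fell (Id1, Id3 and Myf5). Mki67 passed narrowly (limma adjusted p = 0.0482), and its groups overlapped, with TWEAK trial 3 at 5.34 FPKM and untreated trial 2 at 5.56. With the replicate block all 6 passed, beside 27.9% of all tested genes, with Ccnb1 also higher (limma adjusted p = 0.258, and 0.00725 with the block) and Pax7 also lower (0.0704 and 0.004). Their part in the metallothionein result was not tested. The macrophage markers summed to 1.51 to 1.80 FPKM with TWEAK and 1.66 to 1.77 without, the larger share from Cd68 (1.30 and 1.24 FPKM), with Adgre1 at 0 in all libraries. The adipocyte markers summed to 6.77 to 9.06 and 7.49 to 9.16 FPKM, with Plin1 at 0, and of the 2 tested Pparg fell. The endothelial markers summed to at most 0.104 FPKM, and the osteoblast markers to 2.74 to 3.02 and 3.28 to 3.67 FPKM, with Ibsp at 0.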

How the data were processed

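The submitters' processing notes name DESeq2 1.22.2, HTSeq 0.6.1p2, STAR 2.6.0c, Trim Galore 0.5.0 and the build GRCm39; settings, annotation release and strand use were not found in the labels. The deposited table gives FPKM per library and, per the file headers, the authors' own comparison: a mean normalized signal, a log2 fold change with SE, a test score and p-values. That fit held further libraries, not analysed here, since 2337 genes at 0 in all 6 have a mean above 0.

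Each FPKM is a read number over the product of transcript length and a factor per library. All 126386 values above 0 came out as whole reads (relative tolerance 1e-06). The read step of each gene was fitted to its own values, so this check could hardly fail and nothing is read from it. Of 10523 genes with over 1000 reads, 98.7% had a length equal to the longest GENCODE M21 transcript. A common factor was set by that length for 1130 genes.

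The test was limma-trend (limma 3.58.1, R 4.3.3) on log2(FPKM + 1), group as the only term, for 12770 genes with a mean of at least 0.5 FPKM, two-sided, with Benjamini-Hochberg adjustment at 0.05 over all of them; it was tested on simulated data. Log2 fold changes from limma-trend are differences of log2(FPKM + 1), positive when higher with TWEAK, and folds are ratios of mean FPKM. For genes at low FPKM the added 1 makes the log2 fold change smaller than the log2 of the fold. For Cebpd it was 0.82, and 1.10 with limma-voom on recovered reads. Intervals are at 95%; those from reads are exact binomial and cover counting error only. Same-trial libraries deviated together (correlations 0.473, 0.218 and 0.434), so trial numbers were taken to pair them, from the data and not the labels.

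The members and lists were chosen with earlier results of these data known. Named genes were the 7 members, every ZIP, ZnT or metallothionein gene past the threshold, up to 3 risen and 3 fallen genes of each other list, and the 5 genes most like Mt1 and Mt2; genes near Mt1, overlapping genes and list members that did not pass were named after their values were seen. Promoters are from RefSeq (GRCm38.p6), matched for 6 of the 7 members. Python 3.11.15 was used.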

Additional observations from a re-analysis of the deposited data

How the results depend on the processing

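The number of genes past the threshold was 1926, and 3563 when trials entered as a replicate block, 2130 with limma-voom run on recovered reads, 4019 with the block and limma-voom run on reads (added once the data had been seen) and 801 with no expression minimum; leaving out single libraries gave 844 to 2101 (the lowest without TWEAK replicate 2, then 1099 without untreated replicate 1 and 1104 without untreated replicate 2). Zinc genes past the threshold, Mt1 and Mt2 left out, numbered 3, and 1 with no expression minimum and 1 to 3 with single libraries left out; the gene that remained in each of the 15 alternatives was Slc39a11. The block changed no call among the zinc genes. Slc39a14, with a main log2 fold change of -0.000464, changed sign without single libraries (-0.070 to 0.049) and passed in none. Mt1 and Mt2 stayed above 0 in all 15 alternatives, from 0.50 to 0.75 and from 1.46 to 1.72. Dividing by median FPKM or quantile normalization moved the median of all genes from 0.011 to no lower than -0.0104 (log2) and kept the same 3 zinc genes. Slc39a8 was not tested at a minimum of 1 FPKM. With 240 and 279 reads, its interval of 0.808 to 1.15 limits what could be seen. The cause of these changes was not tested.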
